A study of Homo sapiens with 6 samples.

Results

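The Kruppel-like factors (KLFs) are zinc finger transcription factors that bind GC-rich and CACCC-type DNA elements. Transcripts of 10 of them, KLF2, KLF3, KLF4, KLF5, KLF6, KLF9, KLF10, KLF11, KLF13 and KLF16, were followed in human HEK293T cells transfected to express a bacterial polyphosphate kinase. They were picked by gene symbol from the deposited table of 58051 genes, and all 10 were among the 19574 genes with enough counts to be tested. Another 8 KLF genes were read as their relatives.

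HEK293T is an embryonic kidney line that carries the SV40 T antigen, and all cells of the series were of this line. The control group (3 libraries) received pcDNA3.1-, an expression vector without an insert. The other group (3 libraries) received pcDNA3.1-ppk1, which expresses ppk1, the gene of an enzyme that joins phosphate into long chains. Both groups were harvested 48 hours after a transient, lipid-based transfection, so the cells of a culture need not all carry the plasmid, and expression from this vector is driven by a strong viral promoter. The protocol text covers a range of plasmid amounts, more than 1 reagent and also a tagged ppk1 plasmid, without saying which amount or reagent served which library. Libraries share the letters B, C and D across the groups, and libraries of a letter are matched biological replicates. The rows of the table are human genes, so the level of ppk1 itself was not analysed here.

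KLF proteins differ mainly in the part ahead of their DNA-binding domain, which decides the cofactors they bring to a promoter. KLF3, KLF8 and KLF12 bind the corepressor CtBP. KLF1, KLF2, KLF4, KLF5, KLF6 and KLF7 act largely as activators and work with acetyltransferases. KLF9, KLF10, KLF11, KLF13, KLF14 and KLF16 carry a SIN3A-binding helix and often repress. Many KLF transcripts are short-lived and answer quickly to serum, growth factors, hormones or mechanical force.

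Library depth ran from 40851783 to 67122986 counts, and levels are given as CPM, the usual unit of counts scaled by library size, with TMM factors applied. The lists of markers fixed for HEK293 cells summed to between 885 and 1000 CPM without ppk1 and between 851 and 891 CPM with it. Of these 7 genes, KRT18 rose and NEFL fell with ppk1 (edgeR adjusted p 0.0113 and 0.00793), beside 9.08% of all tested genes called. Neither was called with no block (0.0629 and 0.0776) or with the C libraries left out (0.504 and 0.338). PAX2 was the lowest marker, at a mean of 3.00 CPM with the empty vector and 3.14 CPM with ppk1. Endothelial, leukocyte and stratified epithelium markers summed to at most 0.677, 2.01 and 0.0734 CPM in any library, and KRT14 had no count in any. Fibroblast markers summed to between 19.3 and 24.3 CPM with the empty vector and between 22.9 and 23.2 CPM with ppk1.

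The stretch of DNA ahead of the annotated start was taken from RefSeq (build GRCh38.p14) for 8 of the 10 genes, in 10 windows of 250 bases. KLF3 and KLF10 were not part of this search, so the motif counts below leave them out. A pair of windows is shown, that of KLF16, the member that rose, and that of KLF2, whose promoter is known for a site of the MEF2 factors. Each is printed from 250 to 31 bases before the start, on the strand of the gene. Capitals mark matches to the GC box GGGCGG on either strand in KLF16 (chr19:1863610-1863829, minus strand) and to the MEF2 site in KLF2 (chr19:16324576-16324795, plus strand).
KLF16: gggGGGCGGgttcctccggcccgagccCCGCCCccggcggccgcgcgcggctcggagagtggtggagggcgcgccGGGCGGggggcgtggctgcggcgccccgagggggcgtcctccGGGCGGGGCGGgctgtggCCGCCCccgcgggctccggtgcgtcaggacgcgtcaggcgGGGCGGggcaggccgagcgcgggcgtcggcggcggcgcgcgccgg
KLF2: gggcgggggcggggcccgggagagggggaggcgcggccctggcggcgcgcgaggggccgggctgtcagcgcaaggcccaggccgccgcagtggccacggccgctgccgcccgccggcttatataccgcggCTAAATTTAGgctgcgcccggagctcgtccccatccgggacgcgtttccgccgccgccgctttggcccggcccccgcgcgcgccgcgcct

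The KLF16 window held 7 matches to GGGCGG, some of them overlapping, and 86.4% of its bases were G or C, at the 99.8th percentile of the 35116 windows in the table. GGGCGG was found in 8 of the 10 member windows, against 42.6% of all windows, and in at least 1 window of 7 of the 8 member genes. KLF9 was the exception, with a window of 32.4% G and C. The member windows with a match held between 69.2% (KLF4) and 86.4% (KLF16) G and C, against a median of 58.0% over all windows. The share of 42.6% is therefore not matched for base composition. The motif CACCC occurred in 4 of the 10 member windows (54.7% of all windows), which belong to 3 of the 8 genes. TGACGTCA occurred in 1 window, of KLF11 (1.65%). The MEF2 site occurred in KLF2 (2.80%), and the CArG box, bound by SRF, in none of the 8 (1.16%). A match is a description of the letters only, and all motifs were searched on both strands.

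With ppk1, KLF10 transcripts fell by 22.4% and KLF16 transcripts rose by 22.1%, while the other 8 KLF genes were not called. Both genes belong to the SIN3A-binding group. The 2 called members of 10 stand against a background of 9.08% of all tested genes called (4.04% higher and 5.04% lower). Other fits called fewer or as many members. Without the block 0 were called (2.40% of all tested genes), and DESeq2 called 1 (4.40%), as did upper-quartile scaling (6.92%). With replicate B, C or D left out, 2, 0 and 1 members were called, beside 12.5%, 2.06% and 9.06% of the genes tested.

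**Figure D1:**
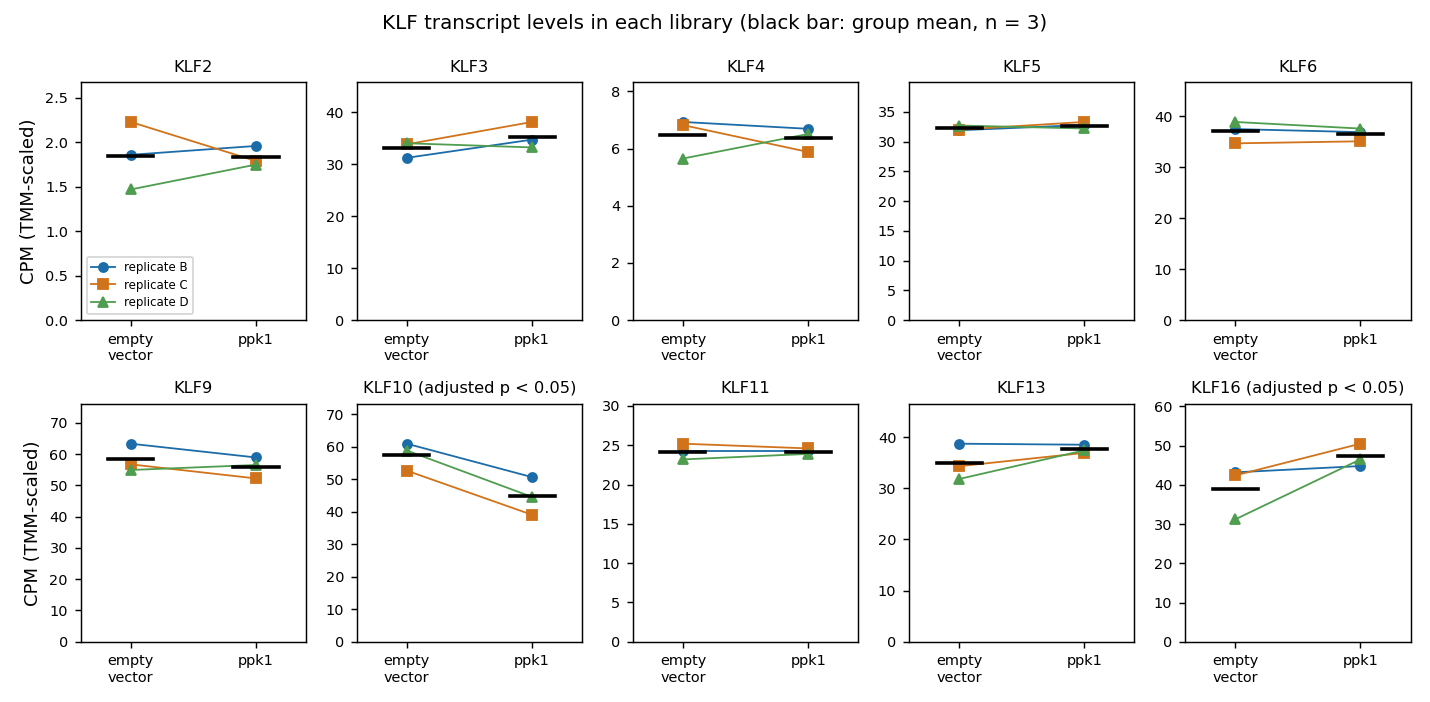
Level of each of the 10 KLF genes in CPM, scaled by the TMM method, in the 6 libraries. Points of a letter are joined across the groups and black bars are group means (n = 3). KLF10 falls in each pair, KLF16 lies above the whole empty vector group in each ppk1 library, and the groups overlap for the other 8 genes.

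KLF10, also known as TGF-beta-inducible early gene, encodes a repressor that TGF-beta and growth factors induce within minutes to hours. KLF10 (ENSG00000155090, chromosome 8) was at 61.0, 52.7 and 58.9 CPM in empty vector libraries B, C and D and at 50.7, 39.1 and 44.6 CPM in the ppk1 libraries. The groups did not overlap, although the highest ppk1 library (B) lay close under the lowest empty vector library (C). Within each pair the ppk1 library was lower, by a log2 difference of -0.27 in B, -0.43 in C and -0.40 in D. The group means were 57.5 ± 4.30 and 44.8 ± 5.80 CPM (mean ± SD, n = 3). The log2 fold change was -0.36 (SE 0.08, 95% interval -0.52 to -0.21), with a Benjamini-Hochberg adjusted p of 0.000795 in the quasi-likelihood test of edgeR, fitted over all genes with the replicate letter as a block. KLF10 ranked 337th by p among the tested genes. It was not called in a fit with no block (edgeR adjusted p 0.0711) or when the C libraries were left out (0.159, at a log2 fold change of -0.33).

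KLF16 encodes a widely expressed factor of the same group that competes for GC-rich elements. KLF16 (ENSG00000129911, chromosome 19) was at 43.2, 42.4 and 31.2 CPM in empty vector libraries B, C and D and at 44.8, 50.5 and 46.5 CPM in the ppk1 libraries. The groups did not overlap, but the lowest ppk1 library (B) was only slightly above the highest empty vector library, and empty vector library D was well below its group. The pair differences were accordingly uneven, at 0.05 in B, 0.25 in C and 0.57 in D on the log2 scale. The group means were 38.9 ± 6.71 and 47.3 ± 2.90 CPM (mean ± SD, n = 3), and the log2 fold change was 0.29 (SE 0.08, 95% interval 0.13 to 0.45, edgeR adjusted p 0.0154). Its adjusted p in edgeR was 0.342 without replicate D, where the log2 fold change was 0.13, and 0.224 when C was left out. It was 0.199 with no block and 0.0669 with upper-quartile scaling, and the DESeq2 test with the block gave 0.0898.

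KLF16 is also the member with the most GC-rich transcript (67.8% G and C). When GC content and transcript length were entered as offsets, its log2 fold change was 0.21, with an edgeR adjusted p of 0.00906, and that of KLF10 was -0.37. The KLF16 exons overlap an antisense gene, AC012615.3, over 483 bases. That gene had between 2 and 8 counts per library, against at least 1274 for KLF16.

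For non-overlap of the groups, the 2 members of 10 compare with 25.6% of all tested genes, 13.0% higher and 12.6% lower. These 2 were also the members whose direction was the same in all 3 pairs, which held for 43.8% of all tested genes.

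**Figure D2:**
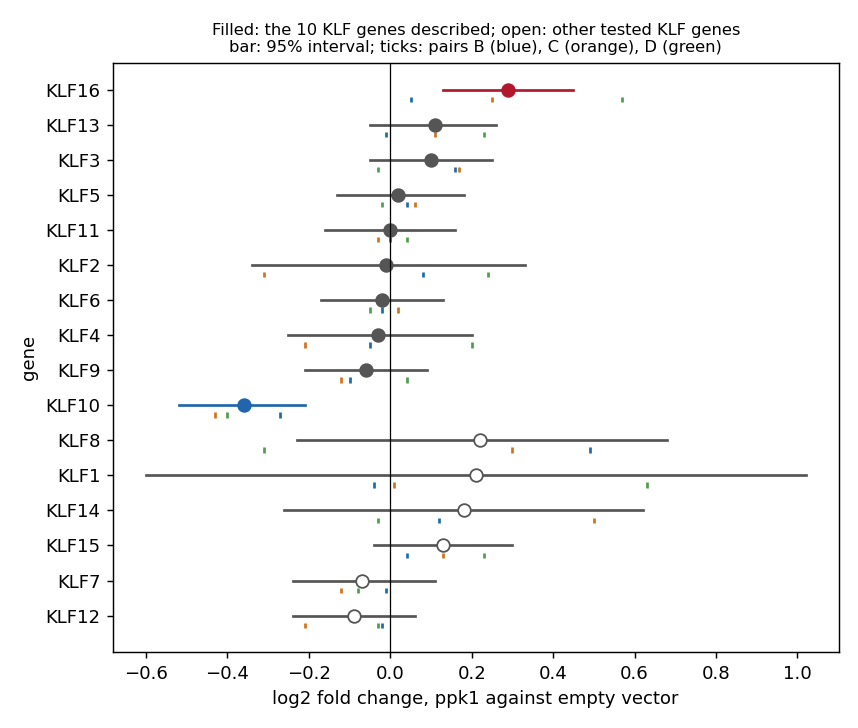
Log2 fold change (ppk1 against empty vector, x axis) of the 16 tested KLF genes, with 95% intervals from the edgeR fit. Ticks under each point are the differences within pairs B, C and D. The intervals of KLF10 (-0.52 to -0.21) and KLF16 (0.13 to 0.45) leave out 0, and those of the other 14 genes include it.

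The remaining SIN3A-binding members were KLF9, KLF11 and KLF13. KLF9 is induced by glucocorticoid and thyroid hormone and is a clock-linked repressor. It was at 63.3, 56.7 and 54.9 CPM in empty vector libraries B, C and D and at 58.9, 52.2 and 56.5 CPM with ppk1, so the groups overlapped. Its log2 fold change was -0.06 (95% interval -0.21 to 0.09, edgeR adjusted p 0.676).

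KLF11, a close relative of KLF10 that is likewise responsive to TGF-beta, did not share its fall. It was at 24.3, 25.2 and 23.2 CPM in empty vector libraries B, C and D and at 24.3, 24.6 and 23.9 CPM in the ppk1 libraries. The log2 fold change was 0.00 with a 95% interval of -0.16 to 0.16 (edgeR adjusted p 0.993), an interval that does not reach the estimate of KLF10. Its exons overlap the antisense gene AC104794.4 over 416 bases, a gene with at most 7 counts in a library. KLF13, which regulates cytokine and cholesterol-transport genes among others, was at 38.7, 34.3 and 31.8 CPM with the empty vector and at 38.5, 36.9 and 37.4 CPM with ppk1. Empty vector library D was the lowest of its group for KLF13, as it was for KLF2, KLF4, KLF9, KLF11 and KLF16, and pair D had the largest KLF13 difference (0.23, against -0.01 in B and 0.11 in C). The KLF13 log2 fold change was 0.11 (95% interval -0.05 to 0.26, edgeR adjusted p 0.415).

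The activator group was close to level between the groups. KLF5, a growth-promoting factor of epithelial cells, varied little, with 31.9, 32.0 and 32.7 CPM in the empty vector libraries and 32.8, 33.3 and 32.2 CPM in the ppk1 libraries (B, C and D). Its coefficient of variation was 1.39% and 1.64% in the empty vector and ppk1 groups. Its 95% interval was -0.13 to 0.18 around a log2 fold change of 0.02 (edgeR adjusted p 0.886).

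KLF6, a factor induced by injury and growth signals, was at 37.5, 34.7 and 38.9 CPM with the empty vector and at 36.9, 35.1 and 37.6 CPM with ppk1. Its log2 fold change was -0.02 (95% interval -0.17 to 0.13, edgeR adjusted p 0.912). The intervals of KLF5 and KLF6 therefore leave out the estimates of KLF10 and KLF16.

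KLF4, a pluripotency and epithelial differentiation factor, and KLF2, a factor induced by shear stress in endothelium, were the least expressed members. KLF4 was at 6.93, 6.82 and 5.65 CPM in empty vector libraries B, C and D and at 6.69, 5.88 and 6.51 CPM with ppk1. Its pairs disagreed in sign, with differences of -0.05, -0.21 and 0.20, and its log2 fold change was -0.03 (95% interval -0.25 to 0.20, edgeR adjusted p 0.921). KLF2 had only 60 to 131 counts per library, or 1.86, 2.23 and 1.47 CPM with the empty vector and 1.96, 1.79 and 1.75 CPM with ppk1. Its pairs also disagreed (0.08, -0.31 and 0.24). The 95% interval of KLF2, from -0.34 to 0.33, still holds a change as large as that of KLF16, which was therefore not detectable at this depth and spread (log2 fold change -0.01, edgeR adjusted p 0.986).

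KLF3, the CtBP-binding member and a repressor in blood and fat cells, was at 31.2, 33.8 and 34.0 CPM in the empty vector libraries and at 34.7, 38.1 and 33.2 CPM with ppk1. It was higher with ppk1 in pairs B (0.16) and C (0.17) and not in D (-0.03), and the groups overlapped. The log2 fold change was 0.10 (95% interval -0.05 to 0.25, edgeR adjusted p 0.459). Under those offsets it was 0.15, with an edgeR adjusted p of 0.0702, the lowest of any uncalled member under any alternative run. KLF3 overlaps its antisense gene KLF3-AS1 over 266 bases, and that gene had between 13 and 40 counts per library.

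To compare the genes with each other, CPM was divided by the length of all annotated exons of a gene in kilobases (GENCODE release 29). On this scale KLF10 led the empty vector group with 14.4 ± 1.07 CPM per kilobase (mean ± SD, n = 3). KLF16 followed with 13.2 ± 2.27 and KLF9 with 11.3 ± 0.854. Their ranges over the libraries overlapped for KLF10 and KLF16 and for KLF16 and KLF9. KLF5 (8.27 ± 0.115) and KLF6 (6.04 ± 0.353) came next, each separate from its neighbours. KLF11 (5.28 ± 0.224) and KLF3 (5.24 ± 0.254) could not be ordered, since their ranges overlapped. KLF13 (3.71 ± 0.371), KLF4 (1.77 ± 0.193) and KLF2 (0.918 ± 0.190) closed the order without overlap.

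In the ppk1 group the leading place was taken by KLF16, at 16.0 ± 0.982 CPM per kilobase, ahead of KLF10 at 11.2 ± 1.45 and KLF9 at 10.8 ± 0.657. The ppk1 ranges of KLF10 (9.77 to 12.7) and KLF9 (10.1 to 11.4) overlapped, so KLF10 and KLF9 could not be ordered there. All ppk1 libraries had more KLF16 than KLF10 per kilobase of all exons, while KLF10 was ahead in empty vector libraries B and D and behind in C (13.2 against 14.3). KLF10 made up 20.7%, 18.9% and 22.0% of the summed level of the 10 genes in empty vector libraries B, C and D and 17.8%, 14.1% and 16.0% with ppk1. KLF16 made up 19.9%, 20.5% and 15.9%, and with ppk1 21.3%, 24.8% and 22.7%. The sum itself was similar, between 66.8 and 73.5 CPM per kilobase with the empty vector and between 69.0 and 71.4 with ppk1. The order of KLF10 and KLF16 within a library depended on the length used. With the length of the principal transcript, an alternative chosen after seeing the data, KLF10 was ahead in empty vector library C (17.0 against 14.7) and in ppk1 library B (16.4 against 15.5), and the other 4 libraries kept their order. The group means on that scale were 18.6 for KLF10 and 13.5 for KLF16 with the empty vector, and 14.5 and 16.4 with ppk1. KLF3 and KLF11 changed places in the empty vector group.

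**Figure D3:**
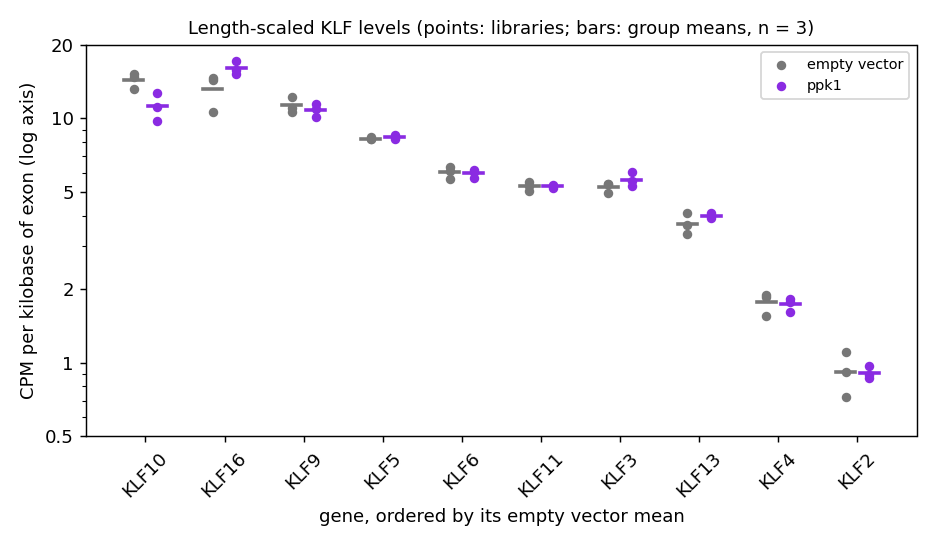
Level of the 10 KLF genes per kilobase of exon (log axis), ordered by the empty vector mean, with a point for each library and a bar for each group mean (n = 3). KLF10 leads with the empty vector (14.4) and KLF16 with ppk1 (16.0), and KLF4 and KLF2 lie lowest in both groups.

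Over the 6 libraries, the log2 levels of KLF10 and KLF16 had a Pearson correlation of -0.72, and those of KLF13 and KLF16 of 0.80. KLF6 and KLF11 had the lowest value among the 45 pairs of members (-0.93) and KLF2 and KLF11 the highest (0.93). These values describe 6 points that share libraries and groups. The genes whose log2 CPM followed that of KLF10 most closely, among 13806 named genes averaging 50 counts or more, were CHRNA3 (r = 0.996), OPTN (0.994) and PARP2 (0.994), over 6 libraries. CHRNA3 encodes a nicotinic receptor subunit, OPTN an autophagy receptor and PARP2 a DNA repair enzyme. CHRNA3 was at 7.37 ± 0.695 CPM with the empty vector and 5.45 ± 0.839 CPM with ppk1 (mean ± SD, n = 3), and its log2 fold change was -0.43 (edgeR adjusted p 0.00672). OPTN was called, at -0.25 (0.0435), and PARP2 was not, at -0.16 (0.173). Because these 3 genes were picked for following KLF10 over the same libraries, their lower level with ppk1 comes with the choice. All 3 overlap another annotated gene, so their counts are uncertain.

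The 8 other KLF genes gave no call. KLF12 was the most counted of them, at 75.4 ± 2.2 CPM with the empty vector and 71.0 ± 3.66 CPM with ppk1 (mean ± SD, n = 3). It was lower with ppk1 in 3 of 3 pairs, with a log2 fold change of -0.09 (edgeR adjusted p 0.516). KLF15, a metabolic regulator induced by fasting and glucocorticoid, had 16.6 ± 1.52 and 18.2 ± 1.66 CPM. It was higher with ppk1 in 3 of 3 pairs, with a log2 fold change of 0.13 (edgeR adjusted p 0.368). KLF7, a transcription factor known for its part in nerve growth, had 15.9 ± 1.22 and 15.2 ± 1.74 CPM. It was lower in 3 of 3 pairs, with a log2 fold change of -0.07 (0.683 in the same test).

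KLF8, KLF14 and KLF1 were near or below 1 CPM, with log2 fold changes of 0.22, 0.18 and 0.21 and edgeR adjusted p-values of 0.592, 0.662 and 0.797. Of these 6 tested genes, 0 were called by edgeR or DESeq2, which gave KLF1 no adjusted p, and 0 had an unadjusted p below 0.05 in either. KLF17 and KLF18 had at most 1 count in a library. A count of 3, taken as the most that a count of 0 allows, corresponds to between 0.0449 and 0.0734 CPM, so both were at or under that floor, which covers counting error only.

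The SP factors bind the same GC-rich elements as the KLFs. Of 9 SP genes 7 were tested and 0 were called by edgeR or DESeq2, and 2 had an unadjusted p below 0.05 in each. The 2 in edgeR were SP1 (203 and 181 mean CPM) and SP3 (97.2 and 86.2 mean CPM in the empty vector and ppk1 groups), both with a log2 fold change of -0.17 and edgeR adjusted p-values of 0.14 and 0.167. Their values were looked at after the count was known. The median log2 fold change of the list was -0.03, beside 0.01 for all tested genes.

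The corepressors and acetyltransferases that KLF proteins recruit were likewise not called. Of 12 genes (CTBP1, CTBP2, SIN3A, SIN3B, SAP30, HDAC1, HDAC2, HDAC3, EP300, CREBBP, KAT2A and KAT2B), 0 passed in edgeR or DESeq2 and 3 had an unadjusted p below 0.05 in each. Their log2 fold changes lay between 0.02 and 0.18, with a median of 0.10. SIN3A, the partner of the KLF10 and KLF16 group, was at 129 and 131 mean CPM in the empty vector and ppk1 groups.

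KLF2 and KLF4 are classical targets of a kinase route that runs through MEKK2 or MEKK3, MEK5 and ERK5 to the MEF2 factors. Of 12 genes of that route 1 was called, a share near the 9.08% of all tested genes, so the count sets nothing apart about the route. MAPK7, the gene of ERK5, was at 21.2, 23.1 and 18.7 CPM in empty vector libraries B, C and D and at 24.2, 30.5 and 25.0 CPM with ppk1. It rose with ppk1 in all 3 pairs (0.19, 0.40 and 0.42), and its groups did not overlap. The log2 fold change was 0.33 (SE 0.08, edgeR adjusted p 0.00469). Its call was lost with no block (0.115) and with the C libraries left out (0.295), and it overlaps B9D1 and MFAP4, so its count is uncertain. KLF2, whose window holds the MEF2 site printed above, had the log2 fold change of -0.01 given before. Of the MEF2 genes, MEF2A, MEF2B, MEF2C and MEF2D had log2 fold changes of 0.03, 0.20, 0.23 and 0.00, with none called (edgeR adjusted p 0.856, 0.573, 0.0767 and 1). MEF2C was higher with ppk1 in 3 of 3 pairs, without overlap of the groups. Its edgeR adjusted p was 0.00271 with the GC and length offsets, a fit that called 14.5% of all tested genes. It was 0.169 with no block and 0.621 with the C libraries left out, and DESeq2 gave an adjusted p of 0.237. MEF2C overlaps the antisense genes MEF2C-AS1 and MEF2C-AS2, so its count is uncertain. MEF2B shares most of its sequence with a readthrough gene and overlaps it, so its count is uncertain.

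Several KLF proteins are removed by ubiquitin ligases. Of 11 genes on that list 1 was called, which is again near the 9.08% of all tested genes. It was FBXW7, whose product targets KLF2 and KLF5 among many proteins. FBXW7 fell from 53.7, 52.2 and 51.3 CPM to 45.1, 40.5 and 44.2 CPM in B, C and D. The log2 fold change was -0.28 (SE 0.08, edgeR adjusted p 0.0119, 0.0635 with no block and 0.495 when C was left out). It overlaps the antisense gene FBXW7-AS1.

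The signals known to induce KLF10 and KLF9 were read from 2 lists. Of 10 early genes of TGF-beta 8 were tested, 0 were called higher and 2 lower (4.04% and 5.04% of all tested genes), with a median log2 fold change of -0.17 beside 0.01 for all genes. SKIL, a feedback inhibitor of SMAD proteins, was at 44.4, 43.6 and 46.8 CPM in empty vector libraries B, C and D and at 38.1, 39.3 and 37.6 CPM with ppk1. Its log2 fold change was -0.23 (SE 0.08, edgeR adjusted p 0.0427). LTBP2, a matrix protein gene, averaged 5.54 ± 0.34 CPM with the empty vector and 4.12 ± 0.47 CPM with ppk1 (SD, n = 3). Its log2 fold change was -0.43, with SE 0.12 and an edgeR adjusted p of 0.0173. Without the block they had 0.1 and 0.0885, and without replicate C 0.36 and 0.553. In DESeq2 neither was called (adjusted p 0.097 and 0.163). SKIL was also not called without replicate B (0.0677) or D (0.0828), and LTBP2 overlaps an antisense gene.

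The glucocorticoid list held 8 genes, among them NR3C1, the gene of the receptor itself. Of these 8 genes 0 were called by edgeR or DESeq2, and 0 and 1 respectively had an unadjusted p below 0.05. With the D libraries left out, edgeR called 1 of them, beside 9.06% of the genes tested in that fit. Their median log2 fold change was -0.02.

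Among 20 genes reported as KLF targets 19 were tested, and 1 was called higher and 2 lower, beside 4.04% and 5.04% of all tested genes. Their median log2 fold change was 0.03. TXNIP, an inhibitor of thioredoxin, fell most clearly. It was at 46.8, 46.0 and 57.9 CPM in empty vector libraries B, C and D and at 41, 32.3 and 37.0 CPM with ppk1, without overlap. Its log2 fold change was -0.45 (SE 0.08) and its edgeR adjusted p was 9.2e-05. Of the 7 genes named from these lists, it was the 1 that kept its call with no block (0.0452) and with the C libraries left out (0.0332).

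ATF3, a stress-induced factor, fell by 0.31 on the log2 scale (SE 0.07, edgeR adjusted p 0.00382), in all 3 pairs but with overlapping groups (79.6 to 113 CPM with ppk1, 107 to 144 CPM without). TGFB1 rose by 0.27 (SE 0.08, edgeR adjusted p 0.0178). It averaged 33.2 ± 2.19 CPM with the empty vector and 39.9 ± 0.717 CPM with ppk1 (SD, n = 3), and it overlaps HNRNPUL1. Without the block ATF3 and TGFB1 had adjusted p-values of 0.22 and 0.0825, without replicate C 0.366 and 0.393, and TGFB1 had 0.108 without replicate D and 0.0654 in DESeq2. The lists were counted and not tested as sets, and a transcript level does not show which factor acted on a target.

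**Figure D4:**
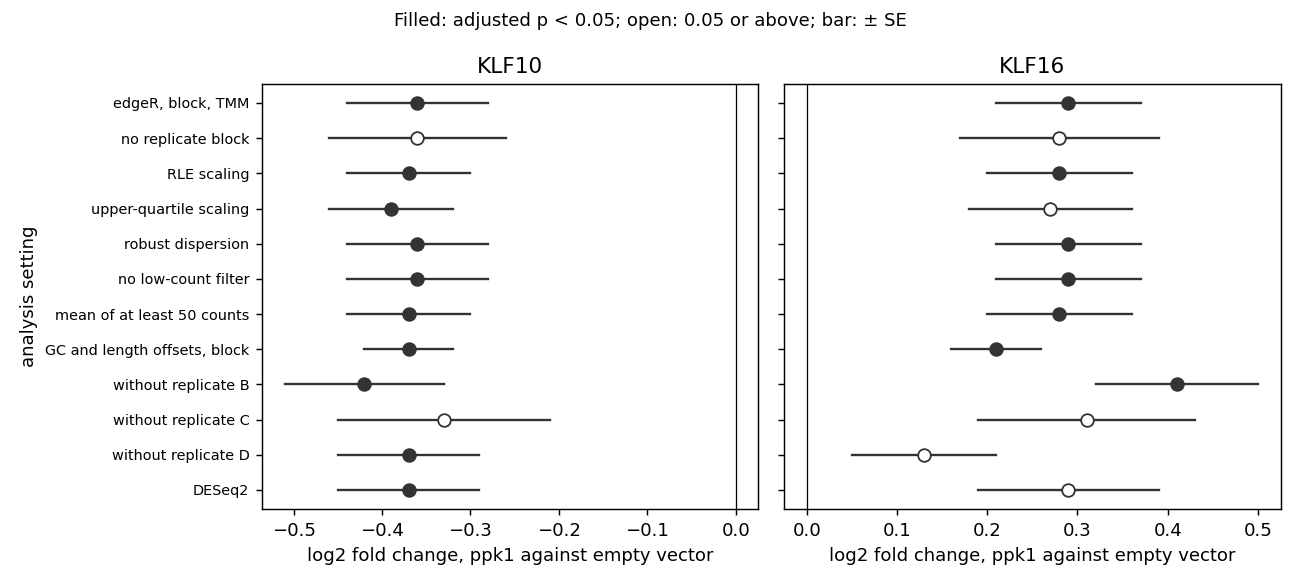
Log2 fold change of KLF10 and KLF16 (points, ± SE) under the reported fit and 11 alternatives. Filled points have an adjusted p below 0.05. All KLF10 values lie between -0.42 and -0.33 and all KLF16 values between 0.13 and 0.41, and open points mark the 2 and 5 settings in which the call was lost.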

How the data were processed

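Poly(A)-selected RNA from 6 libraries (3 per group) was sequenced. The authors deposited 1 table of raw read counts per Ensembl gene, whose 6 columns were matched to samples by name. Per the submitters' processing notes, bcl2fastq 2.20, Trimmomatic, STAR, HTSeq, edgeR, DESeq, Cufflinks and Cuffdiff were used. The genome build, annotation and strand setting of the counting are not given in the sources used here.

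Genes were filtered with filterByExpr (minimum count 10), scaled by TMM and analysed in edgeR 4.0.16 (R 4.3.3) by its quasi-likelihood test, with Benjamini-Hochberg adjustment over all tested genes at 0.05. The replicate letter was a block, because the series' design text states the matching. Deviations from the group means correlated at 0.109 (B), 0.135 (C) and 0.0476 (D) across genes for same-letter libraries and at -0.12 to -0.00506 otherwise. Such deviations cancel within a group by construction, so the negative values are tied to the positive ones and are not separate evidence for the matching. Pair differences are of log2 CPM with a prior count of 2. Standard errors are the log2 fold change over the square root of F, and intervals use the test's degrees of freedom. Scripts were tested on simulated data.

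Chromosomes, lengths and overlaps came from GENCODE release 29 by identifier (98.96% matched). The named genes were the KLF genes, up to 4 called genes per list with the same direction in all 3 pairs, and the 3 genes most alike to the called member with the lowest p. The members and lists were chosen with earlier results of these data known. Alternatives were other scalings and filters, robust dispersion, no block, each letter left out, DESeq2 1.42.0, and GC and length offsets.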

Additional observations from a re-analysis of the deposited data

How the results depend on the processing

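Of 110 values of the 10 KLF genes under 11 alternatives, 103 kept their call status, 7 kept direction but lost the call, and 0 reversed a call. The 7 were KLF10 without the block and without replicate C, and KLF16 in those fits, without replicate D, with upper-quartile scaling and in DESeq2. The other 8 members stayed uncalled in all 88 of their values. In place of 2 called members, there were 0 without the replicate block (2 at an unadjusted p below 0.05), 1 with upper-quartile scaling and 1 in DESeq2. Across the fits that left out a letter, members called ran from 0 (without C) to 2 (without B), and 2 had an unadjusted p below 0.05 without C. Genes called over the whole table, 1777 (791 higher, 986 lower), were 470 (89 and 381) without the block, 755 (324 and 431) in DESeq2 and 2841 (1383 higher) with GC and length offsets. Upper-quartile scaling called 422 higher. Leaving out a letter gave 406 (C) to 2435 (B) genes, 82 to 1263 higher and 324 to 1172 lower. The cause was not tested. No setting moved the median of all genes by 0.1, and a prior count of 0.5 moved a pair difference by at most 0.01. With the principal transcript's length, an alternative chosen after seeing the data, KLF16 minus KLF10 turned from 1.17 to -2.36 CPM per kilobase in empty vector library C and from 2.5 to -0.868 in ppk1 library B. Depth limits KLF1, KLF8 and KLF14 most among the tested KLF genes, and KLF2 among the 10 members.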
